A study of Mus musculus with 3 samples.

Results

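The ubiquitin-specific proteases of the mouse, the largest family of deubiquitinating enzymes, are described here as they appear in the chromatin-associated RNA of stimulated macrophages. Members were all genes with an isoform typed as protein_coding in the GENCODE M21 annotation whose symbol is Usp followed by a number. Usp18 was left out, which gave 55 of the 55536 annotated genes. The rule uses no measured value, but it and the lists used below were set with earlier results of these data known. One member by symbol, Usp6nl, encodes a GTPase-activating protein for Rab proteins and not a protease. The samples were 3 biological replicates of 1 group: bone-marrow-derived macrophages, primary cells of C57BL/6J mice, given lipid A (the part of bacterial lipopolysaccharide that Toll-like receptor 4 binds) at 100 ng/ml for 90 minutes. RNA came from the chromatin fraction and was depleted of ribosomal RNA before total RNA sequencing, with 1 µg, 250 ng and 500 ng of starting RNA in replicates 1, 2 and 3. All 3 libraries carry the same donor label, sex and age were not collected, and the p-values below therefore measure the spread between these libraries, which may be technical. Unstimulated cells and other fractions were not analysed here, so every value is a level and none is a response to lipid A.

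Ubiquitin is attached to proteins by ligases and cut off again by deubiquitinases, most of which are cysteine proteases. Ubiquitin-specific proteases rescue substrates from the proteasome, recycle ubiquitin and trim the chains that carry signals from Toll-like and cytokine receptors, and several act on histones or DNA repair factors. RNA bound to chromatin is largely nascent, so it still holds introns that the cytoplasmic mRNA has lost, and the annotation lists many partial transcripts that keep an intron.

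Such intron-keeping isoforms took 45.0% of the mean Usp TPM, a per-length measure, but 18.1% of the mean expected counts (both explained below). Borders between a coding exon and the intron kept in the isoform are shown for 7 of them that were abundant by TPM. The last 30 bases of the exon are in lower case and the first 30 bases of the intron in capitals, 5′ to 3′ on the strand of the gene, read from the GENCODE M21 transcripts (GRCm38).
Usp15-205: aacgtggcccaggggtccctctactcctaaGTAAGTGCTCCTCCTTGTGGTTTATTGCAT
Usp33-211: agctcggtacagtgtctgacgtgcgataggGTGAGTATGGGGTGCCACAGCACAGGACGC
Usp19-205: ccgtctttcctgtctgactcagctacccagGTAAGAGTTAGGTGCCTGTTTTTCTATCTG
Usp5-207: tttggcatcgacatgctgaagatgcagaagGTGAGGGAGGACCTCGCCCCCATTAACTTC
Usp7-213: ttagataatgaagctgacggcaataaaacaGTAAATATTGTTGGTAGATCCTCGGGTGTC
Usp47-205: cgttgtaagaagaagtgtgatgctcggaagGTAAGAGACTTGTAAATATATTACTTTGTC
Usp9x-202: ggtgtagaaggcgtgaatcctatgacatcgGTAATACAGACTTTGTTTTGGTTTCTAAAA

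These borders lie at chr10:123163563-123163622 (minus strand, Usp15), chr3:152373469-152373528 (plus, Usp33), chr9:108493834-108493893 (plus, Usp19), chr6:124823423-124823482 (minus, Usp5), chr16:8697863-8697922 (minus, Usp7), chr7:112074538-112074597 (plus, Usp47) and chrX:13132319-13132378 (plus, Usp9x). Each stretch of capitals opens with GT, the usual first bases of an intron, as did 73 of the 74 distinct borders found in 82 retained_intron isoforms of the family. The lengths of intron kept differ: Usp19-205, Usp7-213 and Usp47-205 hold a whole intron of 152, 197 and 89 bases, whereas Usp15-205 ends inside an intron of 16654 bases after 2146 of them. Of the 82 isoforms, 27 held their intron whole.

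Depth was 11277198, 24965749 and 19794886 expected counts (read counts divided by a model among the isoforms they could come from) in replicates 1, 2 and 3. A count of 0 therefore allows up to 3 counts, or 0.266, 0.12 and 0.152 CPM (counts scaled to a fixed library total), for counting error only. The libraries differed in 1 locus on chromosome 17 (Gm26917, CT010467.1 and Gm42418, known to attract ribosomal RNA reads), which took 9.31, 50.8 and 38.3% of all counts. TPM, the transcript share of a library, is a per-length measure that divides a fixed total over all genes. Of the 42 tested Usp genes, 25 had their highest TPM in replicate 1 and 32 their lowest in replicate 2. Medians over the tested protein-coding genes, used below as the reference, ran likewise: 5.5, 3.7 and 4.93 TPM in replicates 1, 2 and 3. In log2 units relative to these medians, replicate 1 stood highest for 18 of the 42, against 46.6% of all tested genes. The order in TPM was thus not particular to the family. The part of the chromosome 17 locus in this order was not tested. The macrophage label was checked against 12 markers, of which 9 lay above the bound defined below, as did 21.3% of all tested genes. Fcgr1, Itgam and Tlr4 were not called, at mean levels (defined below) of -0.53, -0.49 and -0.40. The 12 had a summed TPM of 1191, 686.7 and 891.7, with Cybb, Msr1 and Adgre1 the highest. Summed markers of T and NK cells, B cells, neutrophils, mast cells and basophils, stromal and endothelial cells, and dendritic cells reached at most 2.03, 0.12, 1.44, 1.96, 3.47 and 6.68 TPM in any library, while Cd3e, Cd8a, Ncr1, Elane, Mpo, Ly6g, Retnlg, Cpa3, Mcpt8 and Fcer1a had 0 in every library. On these other lists Lck, Kit, Col1a1, Col3a1, Pdgfrb, Kdr, Zbtb46 and Batf3 passed the count minimum given below, and none was above the bound. Batf3 had the highest mean level of them, at -0.13. The megakaryocyte markers Pf4 and Itga2b were not called and stood highest in replicate 2, with 0.70, 5.34 and 0.82 TPM and 0.94, 2.44 and 1.55 TPM.

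The Usp family was broadly present on macrophage chromatin. Of 55 members, 42 had a mean expected count of at least 10 and were tested, 5 had some counts below that minimum (Usp2, Usp26, Usp29, Usp43 and Usp44), and 8 had none in any library (Usp13, Usp17la, Usp17lb, Usp17lc, Usp17ld, Usp17le, Usp51 and Usp9y). Over the same minimum were 13434 of 55536 annotated genes and 10530 of 22028 protein-coding ones. These counts rest on the alignment. In the authors' quantification without an alignment file, Usp17la had 7.94, 2.29 and 3.91 TPM and Usp29 3.44, 0.78 and 1.39 TPM. Usp17lb, Usp17le and Usp9y had 0 there too. Members together took 33072, 43591 and 44725 expected counts, or 0.429, 0.434 and 0.449% of the counts of protein-coding genes. Since these are bulk samples, fewer cells with a transcript and less of it per cell cannot be told apart.

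For each library a gene's level was taken as log2(TPM + 1) minus the median of the tested protein-coding genes (5.5, 3.7 and 4.93 TPM), and it was tested against a bound of 1 log2 unit in either direction. By limma's treat with Benjamini-Hochberg adjustment at 0.05 over 13434 genes, 19 of the 42 tested Usp genes (45.2%) were above the bound and 3 (7.14%) below, while 20 were not called. Among all tested genes 21.3% were above and 21.3% below; among the 10530 protein-coding ones these shares were 24.1% and 19.5%. The median level of the tested Usp genes was 1.01, against -0.21 for all tested genes and 0, by construction, for the protein-coding ones. The 42 genes had passed the count minimum, so neither the count nor the median speaks for all 55 members. Without replicate 1, 2 or 3 in turn, 19, 16 and 14 were above the bound and 3, 1 and 0 below it. All tested genes then gave 22.7, 19.7 and 18.2% above and 24.9, 17.2 and 11.7% below. With no minimum count, where unexpressed genes enter the reference, 35 of 55 (63.6%) were above and 0 below. Among all 55536 genes 13.2% were above and 0% below. Since no gene of any kind was called below there, this setting cannot test the calls below the bound. With a minimum of 100 counts, 6 of 35 members (17.1%) were above and 3 (8.57%) below, against 17.8% and 10.6% of 7399 genes, so the larger share above was not seen among well-covered genes.

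**Figure D1:**
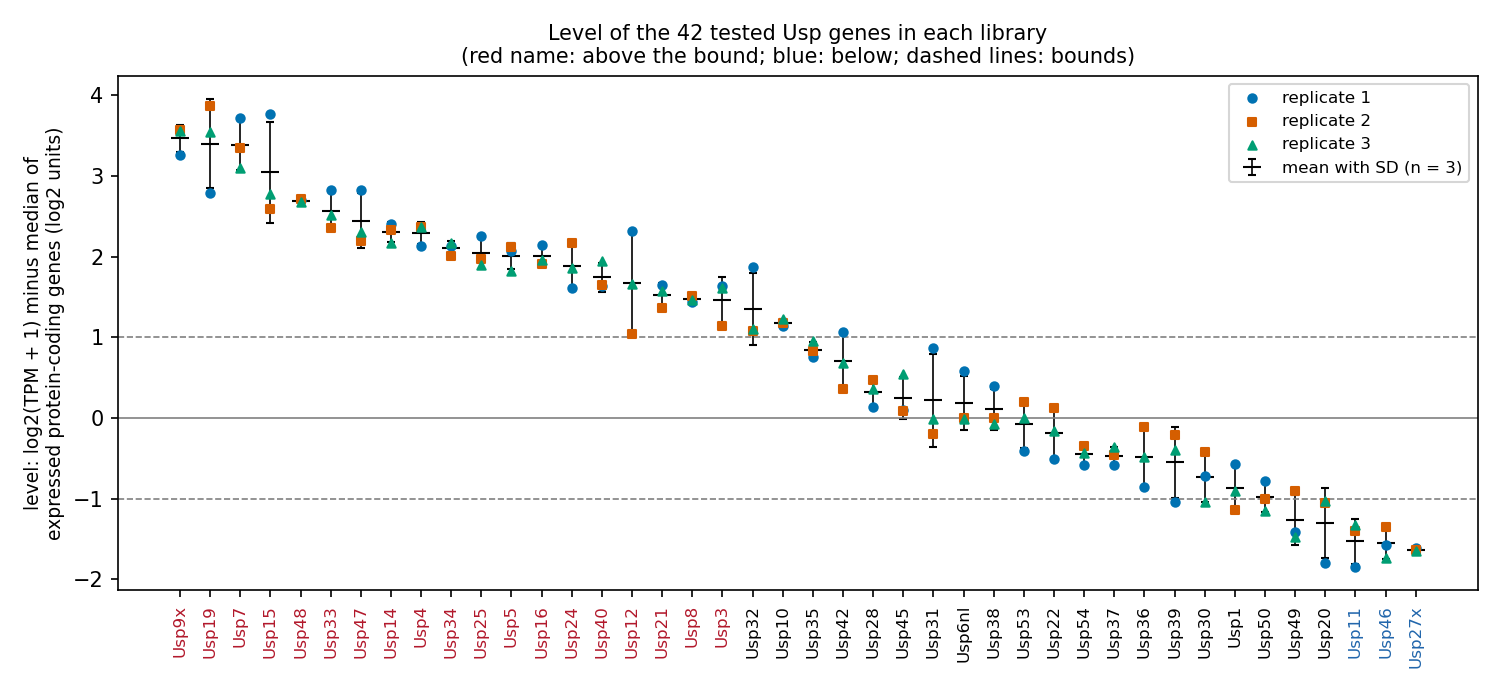
Level of each of the 42 tested Usp genes on the y axis (log2 units relative to the library's median protein-coding gene), ordered by mean along the x axis; symbols are the 3 libraries, bars the mean with SD, dashed lines the bounds. The levels fall without a gap from 3.47 for Usp9x to -1.63 for Usp27x, and Usp12, Usp15, Usp31 and Usp19 spread most between libraries.

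Usp9x, Usp19, Usp7 and Usp15 headed the family at closely spaced levels. Usp9x, a large X-linked enzyme with many substrates that include the survival factor MCL1, had 61.6, 54.82 and 69.11 TPM in replicates 1, 2 and 3 and a level of 3.47 ± 0.17 (SD, n = 3; adjusted p = 4.2e-05, limma treat). Usp19, which has a form anchored in the endoplasmic reticulum membrane, had 44.16, 67.54 and 68.49 TPM and a level of 3.40 ± 0.55. Usp7, the deubiquitinase of the p53 ligase MDM2 and of p53, had 84.57, 46.75 and 49.85 TPM and a level of 3.39 ± 0.31. These 3 means lay within the spread of each gene between libraries, and replicate 1 was the lowest level for Usp9x and Usp19 but the highest for Usp7.

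Usp15, an enzyme known from TGF-β receptor and innate immune signalling, came next with 87.34, 27.46 and 39.68 TPM and a level of 3.05 ± 0.63 (adjusted p = 6.81e-04 by limma's treat, n = 3). Its value in replicate 1 was the highest TPM of any member in any library, and the other two libraries lay well below it. Usp48, reported to act on histone H2A, was by contrast nearly the same in each library relative to the reference: 41.34, 29.77 and 36.89 TPM gave levels of 2.70, 2.71 and 2.68. In the order of mean levels, only 4 of 41 neighbouring pairs differed by more than the SD of their difference with the same order in 3 of 3 libraries (Usp10 over Usp35, Usp53 over Usp22, Usp22 over Usp54 and Usp20 over Usp11), so most of the ranks are not resolved.

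Members known to act on histones or in the SAGA coactivator covered the whole range. Of 10 listed, 8 were tested. Usp7, Usp16, Usp21 and Usp3 were above the bound, Usp27x below it, and Usp22, Usp36 and Usp49 were not called. Calls here and in the lists below stand beside 45.2% above and 7.14% below among the tested members. Among all tested genes 21.3% were above and 21.3% below. Usp16, Usp21 and Usp3, all described as histone H2A deubiquitinases, had levels of 2.01 ± 0.13, 1.53 ± 0.15 and 1.47 ± 0.29. The alignment-free table put Usp21 at 0.70, where it was not called. Usp22, the usual SAGA deubiquitinase, had 3.57, 4.11 and 4.33 TPM. Usp27x, which can take its place, had 1.13, 0.51 and 0.90 TPM with a level of -1.63 ± 0.02 (adjusted p = 0.00891, limma treat). In log2 TMM-normalised CPM the SD of Usp27x was 0.27. Usp51, the third enzyme that can serve SAGA, had no count. Exonic bases of Usp49 overlap those of other genes over 52.3% of its length, so its reads are shared by model.

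Among the 8 members linked to DNA repair or checkpoints, Usp48 and Usp47 (which acts on DNA polymerase β) were above the bound, Usp11, known from homologous recombination, was below it, and Usp1, Usp10, Usp28, Usp37 and Usp45 were not called. Usp47 had 45.31, 20.51 and 28.43 TPM. Usp11 had 0.81, 0.78 and 1.36 TPM and a level of -1.52 ± 0.28 (adjusted p = 0.0308, limma treat), with every library under the bound. Usp1, which removes ubiquitin from PCNA and FANCD2, had 3.37, 1.13 and 2.18 TPM.

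The enzymes switched on by the WD-repeat protein WDR48 differed widely in level. Usp12 had 31.49, 8.66 and 17.84 TPM, a level of 1.68 ± 0.64 and an adjusted p of 0.0448 by limma's treat. It had the largest SD of the level of any tested member, and replicate 2 lay near the bound. In log2 TMM-normalised CPM its SD was 0.54, under that of Usp36 at 0.76. With posterior mean TPM the adjusted p of Usp12 was 0.112 by limma's treat. Usp46, its closest relative, had 1.18, 0.85 and 0.79 TPM and a level of -1.55 ± 0.19 (adjusted p = 0.0202, limma treat), and Usp1 was not called. The call of Usp46 was lost with posterior mean TPM (adjusted p = 0.114) and with alignment-free TPM (adjusted p = 0.0742), both by limma's treat. Wdr48 itself had 50.05, 34.01 and 33.59 TPM and was above the bound.

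Both tested enzymes of ubiquitin recycling were above the bound. Usp14, which sits on the proteasome and trims its substrates, had 33.47, 22.75 and 25.65 TPM and a level of 2.30 ± 0.12. Usp5, which takes apart free ubiquitin chains, had 26.33, 19.53 and 19.99 TPM and a level of 2.01 ± 0.16. Usp13, the relative of Usp5, had no count in any library. Exons of Usp14 overlap those of Thoc1 on the opposite strand, and shared bases make up over 10% of its exonic bases, as they do in Usp33, Usp34 and Usp38 with opposite-strand neighbours of their own; the strand setting of the counting is not given in the sources used here, so reads of such partners may be shared.

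Of 9 members linked to immune signalling, 8 were tested. Above the bound were 5 (Usp7, Usp15, Usp4, Usp25 and Usp21), none was below it, and Usp10, Usp31 and Usp38 were not called. Of all tested members 45.2% were above, and of all tested genes 21.3%. A difference between this list and the family was not tested. Usp25, known to act on TRAF proteins, had 30.13, 17.44 and 21.05 TPM and a level of 2.04 ± 0.19. Usp4, the relative of Usp15, had 27.51, 23.36 and 29.75 TPM and a level of 2.29 ± 0.14, tighter than Usp15 on this scale. In log2 TMM-normalised CPM the SDs of Usp4 and Usp15 were 0.44 and 0.56. For levels from protein_coding isoforms only they were 0.63 and 0.27. Usp31 had 10.90, 3.09 and 4.88 TPM and a level of 0.22 ± 0.57; its replicate 1 stood apart from the other libraries, as in Usp15. The lowest tested member of the list, Usp38, had 7.58, 3.71 and 4.65 TPM.

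Among the 8 members that work at endosomes, the endoplasmic reticulum or mitochondria, Usp9x, Usp19, Usp33 and Usp8 were above the bound and Usp32, Usp35, Usp30 and Usp20 were not called. Usp33, a deubiquitinase bound by the von Hippel-Lindau protein, had 45.11, 23.13 and 33.04 TPM and a level of 2.57 ± 0.24, whereas Usp20, the other enzyme of that name, had 0.87, 1.26 and 1.90 TPM. Usp8, which acts on endosomal receptors with STAM proteins, had 16.64, 12.40 and 15.37 TPM and levels of 1.44, 1.51 and 1.47. Usp30, the mitochondrial outer membrane enzyme, had 2.94, 2.50 and 1.88 TPM. In Usp20 the deposited gene TPM lay outside the interval that the authors' table gives for it in all 3 libraries, as it did in Usp47, so their point values are less certain than the replicates alone show.

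Outside these groups, Usp34, a very large enzyme known from Wnt signalling, and Usp24, also very large, had levels of 2.11 ± 0.09 and 1.88 ± 0.28, and Usp40 one of 1.75 ± 0.18; all were above the bound. Members long classed as lacking protease activity (Usp39, a splicing factor, with Usp50, Usp53 and Usp54) were tested in 4 of 4 cases and none was called. Usp39 had 2.16, 3.07 and 3.50 TPM, Usp53 3.92, 4.41 and 4.92, Usp54 3.35, 2.70 and 3.41, and Usp50 2.79, 1.34 and 1.68 TPM. Of 4 members linked to testis or germ line, Usp50 alone passed the minimum, Usp26 and Usp29 had 1 count each over all libraries, and Usp9y had none. The alignment-free values of Usp29, given above, were higher.

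Relatives within the family were set side by side in 12 listed pairs with both genes tested, as the difference in log2(TPM + 1), which understates differences between low genes. With 3 libraries an exact sign-flip test cannot go below 0.25, so sizes and directions are given without a test. Usp4 was over Usp11 by 3.82 ± 0.14 and Usp12 over Usp46 by 3.23 ± 0.77 (SD, n = 3), in 3 of 3 libraries each. Usp20 was under Usp33 by a mean difference of -3.86 ± 0.66. Usp9x was over Usp24 by 1.58 ± 0.16, Usp16 over Usp45 by 1.76 ± 0.33, Usp25 over Usp28 by 1.72 ± 0.35 and Usp22 over Usp27x by 1.45 ± 0.33, each in 3 of 3 libraries. The pair Usp4 and Usp15 was the only one in which the mean difference, -0.75, was smaller than its SD of 0.77. Usp15 was still the higher in every library. These differences use all isoforms. In TPM of protein_coding isoforms only, Usp4 was the higher in every library, with 4.45, 8.66 and 10.66 against 3.04, 1.31 and 2.11. Usp7 with Usp47 and Usp53 with Usp54 likewise took the other order in every library. Usp35 with Usp38 did so in replicate 1 only, and the other listed pairs kept their order.

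**Figure D2:**
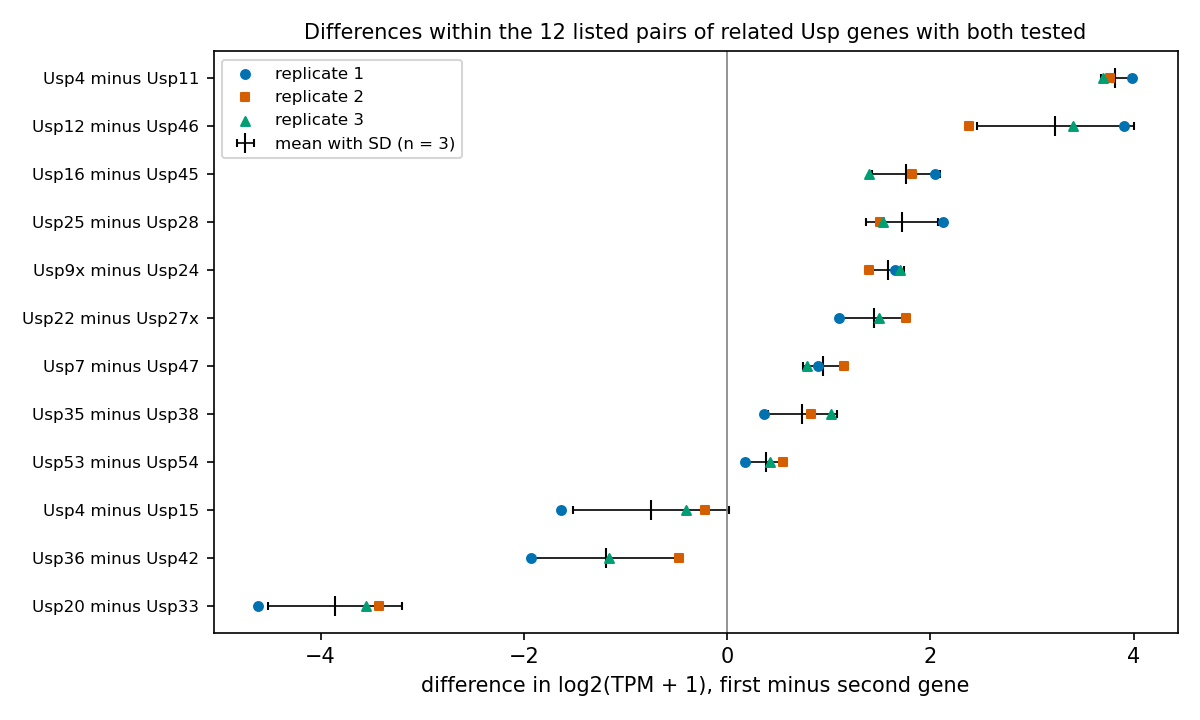
Difference in log2(TPM + 1) between the first and the second gene of 12 listed pairs of related Usp genes (x axis); symbols are the 3 libraries, bars the mean with SD. In this TPM over all isoforms no pair changes sign between libraries, and the spread is widest for Usp4 with Usp15, Usp12 with Usp46 and Usp36 with Usp42.

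Intron-keeping and other partial isoforms carried much of the family's TPM. The annotation holds 355 isoforms of members: 159 protein_coding, 126 retained_intron, 47 processed_transcript and 23 nonsense_mediated_decay. Isoforms not typed protein_coding took 61.5, 49.9 and 49.6% of the members' summed TPM in replicates 1, 2 and 3, and retained_intron isoforms alone 50.7, 41.6 and 40.9%. In expected counts the share not typed protein_coding was smaller, 32.7, 20.8 and 21.6%. Retained_intron isoforms alone took 18.1% of the mean counts. Isoform length separates both measures: the median annotated length was 788 bases for retained_intron and 3205 for protein_coding isoforms, and the 156 isoforms shorter than 1000 bases took 32.9% of the mean TPM but 4.4% of the mean counts.

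The share varied from gene to gene over the whole possible range. For Usp15 it was 95.5 ± 0.9% of TPM (SD, n = 3), all of it in retained_intron isoforms; Usp15-205, whose border is printed above, had 31.95, 6.58 and 8.15 TPM, so replicate 1 stood apart in this isoform too. The protein_coding isoforms of Usp15 together had 3.04, 1.31 and 2.11 TPM. Usp21 had 90.7 ± 5.0%, Usp7 84.0 ± 2.7%, Usp14 83.1 ± 1.0%, Usp10 82.3 ± 4.7%, Usp33 76.3 ± 4.8% and Usp4 70.3 ± 11.7% outside protein_coding isoforms. By expected counts Usp15 and Usp21 remained high, at 85.4 and 80.8%, while Usp7 and Usp14 stood at 59.3 and 51.5%. Retained_intron isoforms alone held 65.7% of the TPM of Usp7 but 17.7 ± 6.7% of its expected counts.

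At the other end, Usp9x had 21.1 ± 3.4%, Usp34 14.4 ± 10.7%, Usp48 13.6 ± 3.9%, Usp8 0.68 ± 0.60% and Usp1 0 of its TPM outside protein_coding isoforms. Usp34, Usp48, Usp8 and Usp1 have no annotated retained_intron isoform, so for these genes the class could not receive reads. Usp50 had all of its TPM in a processed_transcript and a nonsense_mediated_decay isoform, and its protein_coding isoforms were listed at 0 in every library. Over the tested members the median share was 55.9%, against 42.5% over 10523 tested protein-coding genes, and 25 of 42 members (59.5%) had over 50%, against 41.7% of those genes. By expected counts the gap was smaller: the median was 26.6% against 20.9%. By this measure 10 members had over 50%, a count not taken over the protein-coding genes. The 25 by TPM were Usp3, Usp4, Usp5, Usp6nl, Usp7, Usp10, Usp11, Usp14, Usp15, Usp16, Usp19, Usp20, Usp21, Usp28, Usp30, Usp33, Usp35, Usp36, Usp37, Usp38, Usp40, Usp42, Usp45, Usp50 and Usp53. Tested Usp genes also had more exons, a median of 19 in the isoform with the most exons against 10. They had a longer span too, 56596 against 24848 bases. The part of either in the share was not tested.

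**Figure D3:**
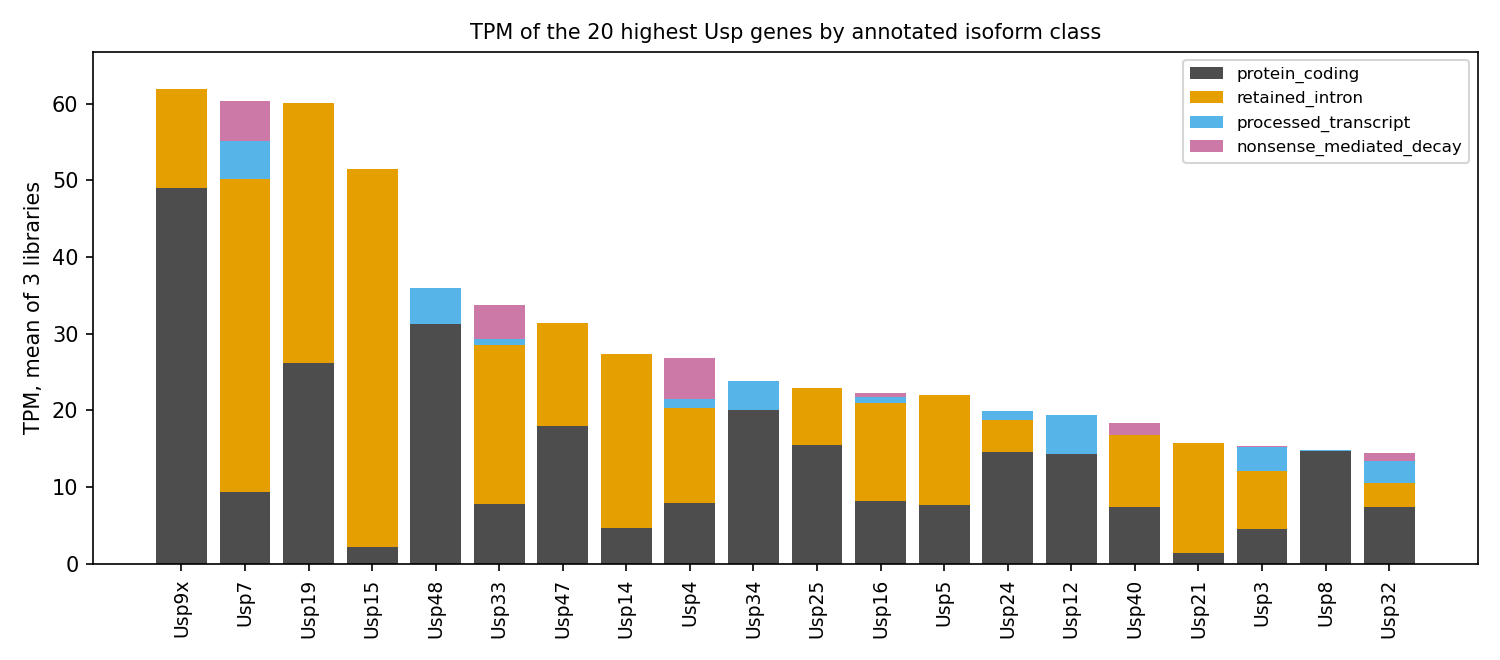
Mean TPM over 3 libraries (y axis) of the 20 Usp genes with the highest mean TPM, stacked by the annotation's isoform class. Usp15, Usp7, Usp14 and Usp21 are mostly retained_intron signal, while Usp9x, Usp48, Usp34 and Usp8 are mostly protein_coding.

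**Figure D4:**
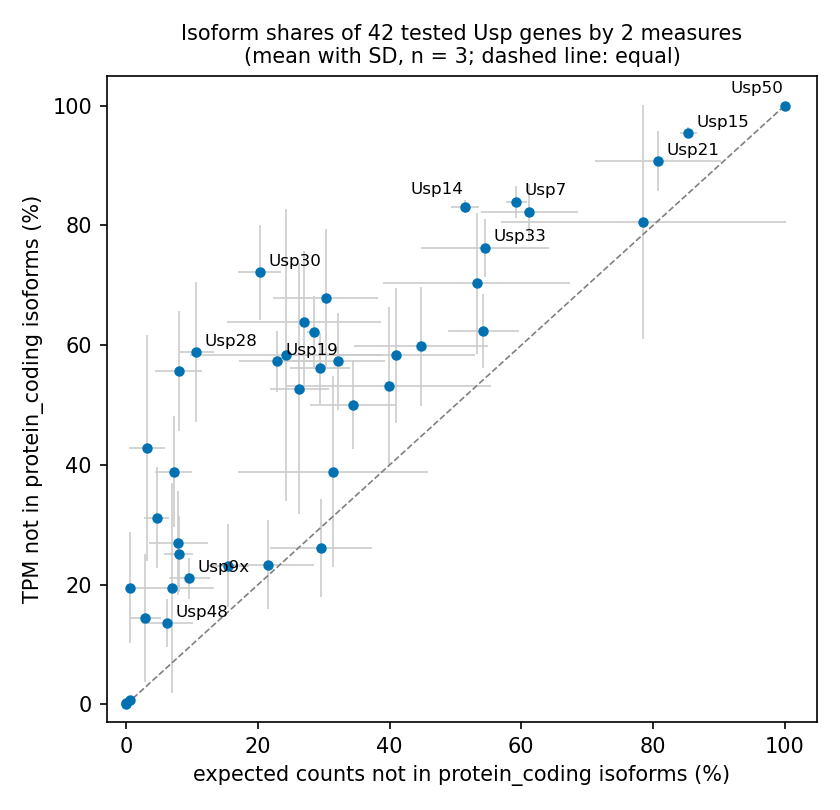
Share of each tested Usp gene outside protein_coding isoforms by expected counts (x axis, %) and by TPM (y axis, %), as mean with SD of 3 libraries; the dashed line marks equality. Most genes lie above the line, and Usp15 and Usp21 are high by both measures.

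Levels were also taken without these isoforms. When TPM was summed over protein_coding isoforms only, with the reference recomputed in the same way, 11 of 42 members were above the bound and 1 below it by limma's treat, against 21.4% above and 7.01% below among 10501 genes. The 11 were Usp9x, Usp48, Usp19, Usp34, Usp47, Usp25, Usp8, Usp24, Usp12, Usp7 and Usp16, all of them also above with all isoforms. The other 8 were no longer called: Usp15, Usp14, Usp4, Usp33, Usp5, Usp40, Usp21 and Usp3. Of these, Usp33, Usp5, Usp4 and Usp40 still had mean levels of 1.38, 1.37, 1.36 and 1.33, and Usp14 and Usp3 had 0.75 and 0.73. Usp15 had moved from 3.05 ± 0.63 to -0.10 ± 0.27, below the median of the protein-coding reference, and Usp21 from 1.53 ± 0.15 to -0.53 ± 0.42.

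Usp7 was at 1.63 ± 0.17 by its protein_coding isoforms (adjusted p = 0.012, limma treat), with 11.54, 7.22 and 9.42 TPM. Usp9x was the highest of the tested members by this measure too, at 3.91 ± 0.13, with 47.32, 42.28 and 57.26 TPM, and Usp48 the next at 3.27 ± 0.15. Usp8, which ranked low among the 19 with all isoforms, was at 2.24 ± 0.06. The 1 call below the bound was Usp50, where 0 TPM in protein_coding isoforms leaves only the pseudocount. Usp11, Usp27x and Usp46, below the bound with all isoforms, were not called here, at levels of -1.45, -1.05 and -0.91. This comparison was added after the data had been seen.

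**Figure D5:**
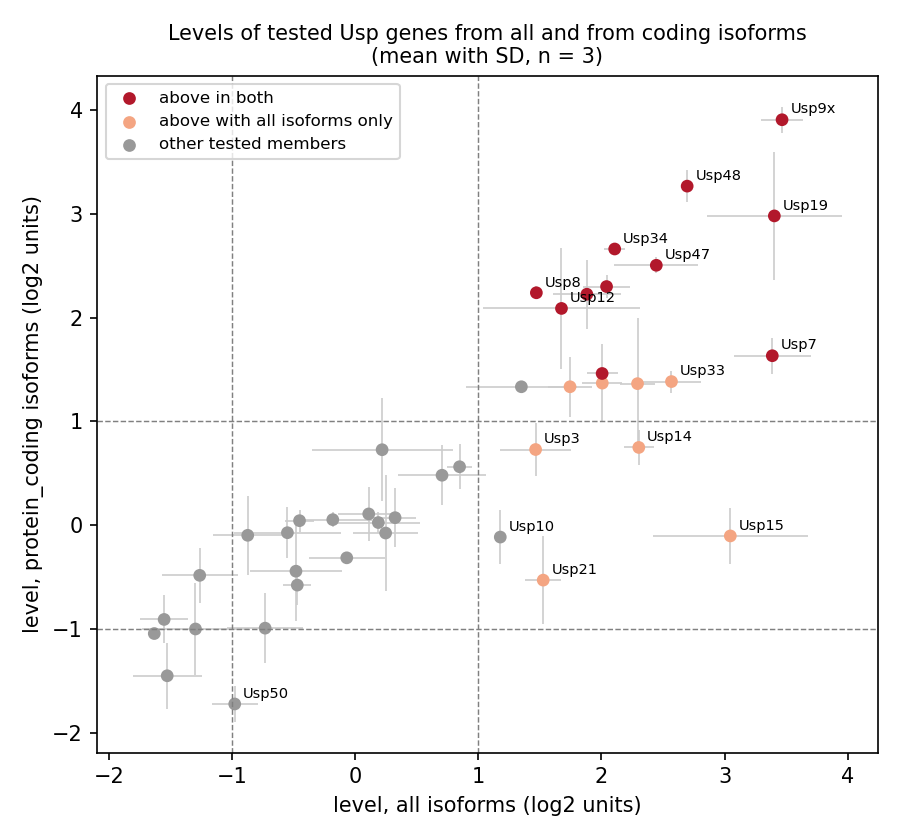
Level of the 42 tested Usp genes from all isoforms (x axis) and from protein_coding isoforms only (y axis), both in log2 units, as mean with SD of 3 libraries; dashed lines are the bounds. Usp15 and Usp21 fall from above the bound to below 0, while Usp9x and Usp48 stay at the top.

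Each library was also quantified by the authors without an alignment file. In the paired difference of levels, alignment-free minus alignment-based, 0 of 42 tested members were called higher and 0 lower by limma's treat. Of 13427 genes 1.9% were called higher and 0.633% lower. An unadjusted p under 0.05 was reached by 0 members, and by 505 higher and 133 lower of the 13427 genes. At such shares few calls could be seen among 42 genes. The largest mean differences were 0.75 for Usp3 and -0.83 for Usp21. By more than 0.5 log2 units 12 members differed, a count not taken over all genes. The share outside protein_coding isoforms was higher in that table, at 69.5, 60.0 and 63.3% of the members' summed TPM.

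Between libraries the tested Usp genes varied with a median SD of 0.235 in log2 TMM-normalised CPM, against 0.398 over all tested genes. Among genes with a mean count of at least 100 these were 0.207 and 0.347. On the scale of the levels the members' median SD was 0.258, against 0.288 for all tested and 0.268 for protein-coding genes, so the difference depends on the scaling. None of these differences was tested. Across genes within these libraries, the mean level of the members went with the number of exons (Spearman rho 0.60 over 42 members; 0.27 over the protein-coding genes) and less with the span (0.25 and 0.15); genes share libraries and depth and are no independent replicates, so these are descriptions.

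Deubiquitinases of other folds were read in the same way. Of 34 listed genes of the UCH, OTU, Josephin, JAMM, MINDY and ZUFSP families, 30 were tested. Of these, 11 (36.7%) were above the bound and 2 below, with a median level of 0.70. Among all tested genes 21.3% were above and 21.3% below. The highest was Tnfaip3, which encodes A20, an inhibitor of NF-κB signalling, with 701.75, 332.78 and 469.82 TPM, far over any Usp gene. Zup1 had 232.21, 44.49 and 83.38 TPM, and Psmd14, the proteasome's own deubiquitinase, 53.53, 20.22 and 27.96 TPM. The 2 below were Otub2 and Uchl3. Josephin members were 3 of 3 not called.

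Of 16 known substrates and cofactors of the family, all tested, 8 were above the bound, 1 was below it and 7 were not called, beside the shares of all genes given above. Mdm2, the ligase that Usp7 stabilises, was the highest with 275.52, 207.70 and 264.46 TPM, and Mdm4 had 158.44, 96.00 and 124.72 TPM, while Trp53 had 16.67, 13.85 and 19.76 TPM. Fancd2, a substrate of Usp1, was the lowest with 0.73, 0.19 and 0.21 TPM. The Usp8 partners Stam and Stam2 and the Usp15 and Usp4 partner Sart3 were above the bound as well.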

How the data were processed

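Total RNA-seq of 3 libraries of 1 group was used; groups, replicate numbers and starting amounts were taken from the labels. The deposited gene and transcript tables hold expected counts and TPM made from an alignment to the transcriptome, with mm10 and GENCODE M21, per the deposited description files; their column names follow RSEM, per the file headers. In making the TPM the authors divided a fixed total among every entry of a table, as the deposited sums show. The other bounds used, the deposited limits of each gene's TPM, served only to check point values. A second deposited transcript table gives TPM without an alignment, with kallisto's columns, per the file headers. The aligner, the tool versions and the strand settings were not given in the sources used here.

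Gene symbols and isoform classes came from the fields of the transcript identifiers, and coordinates and overlaps from the M21 annotation. Members and lists were chosen with earlier results of these data known. Genes whose expected count averaged 10 or more were tested with limma 3.58.1 (R 4.3.3), treat, bound 1, intercept only, on log2(TPM + 1) centred on the median of tested protein-coding genes, with p-values adjusted over all genes (Benjamini-Hochberg, 0.05); the test was checked on simulated counts. TMM factors came from edgeR 4.0.16 (prior count 2) and alternative size factors from DESeq2 1.42.0, on rounded expected counts. Named were the 10 highest, 6 lowest and 4 most variable tested members, the extremes of each role list and all members of lists of 4 or fewer, the listed pairs, members with over 50% of TPM outside protein_coding isoforms, and the extremes of the partner and other deubiquitinase lists; other genes named with values or calls beside them (Usp8, Usp32, Wdr48, Mdm4, Trp53, Stam, Stam2 and Sart3) were chosen after their values were seen, for being called, on a list or a partner. Alternatives covered the pseudocount, the minimum, the reference, the quantification, the count model and each replicate left out. One further list of cell type markers is not reported here as a whole.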

Additional observations from a re-analysis of the deposited data

How the results depend on the processing

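Of 42 tested members, 19 were above the bound and 3 below. Without a minimum count, which tests all 55 members and lowers the reference median, 35 were above and 0 below. Among all 55536 genes 13.2% were above and 0% below. The not-called Usp53, Usp22, Usp54, Usp37, Usp36, Usp39 and Usp30 then had levels of 2.17, 2.06, 1.79, 1.77, 1.76, 1.69 and 1.51, all above the bound. Usp11, Usp46 and Usp27x had 0.72, 0.69 and 0.61, over that lower median. Since no gene of any kind was called below there, this setting cannot test the calls below the bound. With a minimum of 100, which raises the reference, 6 of 35 were above (Usp7, Usp9x, Usp15, Usp19, Usp33 and Usp48) and 3 below; the latter were Usp1, Usp37 and Usp54, since Usp11, Usp27x and Usp46 were not tested there. With protein_coding isoforms only, chosen after seeing the data, 11 were above and 1 below, and Usp15 and Usp21 fell to -0.10 and -0.53. With a pseudocount of 0.1 TPM 5 were below, as were 27.1% of all tested genes. With the median of all genes as reference 1 was below, as were 15.5% of all tested genes. Posterior mean TPM gave 17 above and 2 below (Usp12, Usp8 and Usp46 lost their calls), alignment-free TPM 17 and 4 (Usp21, Usp40, Usp8 and Usp46 lost theirs, and Usp32, Usp20 and Usp49 gained one), and edgeR's quasi-likelihood fit on rounded expected counts, tested against the nearer bound because glmTreat takes no intercept-only design, 20 and 4. Over all tested genes these 3 settings gave 20.2, 20.9 and 23.4% above and 20.6, 22.7 and 25.9% below. Leaving out 1 replicate in turn gave 14 to 19 members above and 0 to 3 below. All tested genes then gave 18.2 to 22.7% above and 11.7 to 24.9% below. Without replicate 3 no member remained below, and without replicate 2 only Usp46. Usp21, Usp3 and Usp8 lost their call above the bound without replicate 2 and also without replicate 3, and Usp12 and Usp40 lost it without replicate 3. In the paired difference, 1 member, Usp17la, which has no count in the alignment-based table, was called higher without a minimum count. That setting called 4.33% of 55450 genes higher. Every other setting run gave 0 members in each direction, leave-one-out included (0 to 0). Across those settings 1.14 to 3.11% of all genes were called higher and 0.633 to 0.931% lower. The median SD was 0.103 without replicate 1 and at most 0.278 with another replicate left out. The pooled share of TPM outside protein_coding isoforms, 53.7 ± 6.8%, was 49.8 to 55.7% with a replicate left out, 64.3% in the alignment-free table and 25.0% by expected counts, the last chosen after seeing the data. Of 60 pair differences under alternatives 51 moved by less than the SD between libraries and 9 by more, none with a change of sign. Those alternatives were alignment-free TPM, a pseudocount of 0.1 TPM and each replicate left out. Protein_coding isoforms only were not among them. By that TPM, Usp4 with Usp15, Usp7 with Usp47 and Usp53 with Usp54 took the other order in every library. No paired analysis was possible because there is 1 group, so no replicate numbers are shared between groups. Depth limits the lowest members: the 5 with some counts under the minimum had at most 8.27 expected counts in any library.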
